A study of Mus musculus with 15 samples.

Results

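The 10 genes for the mTOR complexes, their TSC control and their direct targets were followed across thymic dendritic cell subsets with and without LKB1. They were Mtor, Rptor, Rictor and Mlst8, which encode the kinase and its core partners, Tsc1, Tsc2 and Rheb, which encode the switch that controls it, and Rps6kb1, Eif4ebp1 and Eif4ebp2, which encode proteins it phosphorylates. They were chosen by name and not by their values. All 10 were among the 22165 genes of the table, and all 10 were among the 11746 genes that passed the filter on low counts.

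The mTOR kinase works in separate complexes: mTORC1, built around Raptor (Rptor), drives protein synthesis and growth, and mTORC2, built around Rictor, phosphorylates AKT and SGK kinases. The small GTPase Rheb switches mTORC1 on at the lysosome, and the TSC1 and TSC2 proteins hold Rheb in its inactive form. LKB1, the product of Stk11, activates the energy sensor AMPK, which restrains mTORC1 through TSC2 and Raptor. Most of this control is exerted by phosphorylation of proteins, which mRNA levels do not show. In dendritic cells, mTOR acts downstream of the growth factor Flt3L.

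The series measured polyadenylated RNA of conventional dendritic cells of type 1 (cDC1) and type 2 (cDC2) and of plasmacytoid dendritic cells (pDC), each from WT mice and from Itgax-cre Stk11 fl/fl mice (KO). There were 2 libraries of cDC1 WT, 2 of cDC1 KO, 2 of cDC2 WT, 3 of cDC2 KO, 3 of pDC WT and 3 of pDC KO, and the labels do not say whether replicates came from separate mice, so that p-values measure only the spread between these libraries. In the KO, Cre was driven by the promoter of Itgax, which encodes CD11c. All mice, of both genotypes and both sexes, were on the C57BL/6 background, were 8 to 12 weeks old, and had been given B16 melanoma cells that secrete Flt3L to expand their dendritic cells, so that no group lacked this stimulus. The thymus was taken 9 to 12 days later. After selection on CD11c beads, cDC1 were sorted as CD8a+ CD11c+ MHCII+, cDC2 as CD11b+ CD11c+ MHCII+ and pDC as Siglec-H+ with intermediate CD11c. The libraries were read from the 3′ end of the transcript.

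Total counts lay between 3928164 and 12142712 per library. The library pDC WT 3 had the lowest TMM scaling factor, 0.841 against 0.938 to 1.08 in the others, and at equal depth both cDC2 WT libraries showed fewer genes (10840 and 11359) than the cDC2 KO libraries (12430 to 12760). The summed level of 8 pDC markers was 32533 to 52830 CPM (counts scaled to a common library size after TMM factors) in pDC against at most 1696 elsewhere, and 8 cDC2 markers summed to 613 to 1006 CPM in cDC2, 406 to 584 in pDC and 93.4 to 167 in cDC1. The 9 cDC1 markers summed to 6922 to 10868 CPM in cDC1 and 1944 to 3827 in cDC2 (Xcr1 51.4 to 226), but also to 6992 to 9575 in pDC. There Irf8, which pDC also express, gave most of the sum, and Xcr1 was at most 4.53 CPM in WT against 469 and 658 in cDC1 WT. Cd8a, however, stood at 78.6 to 125 CPM in pDC against 9.71 to 18.1 in cDC2. Of the 9 markers, 2 were higher and 5 lower in pDC than in cDC2 in WT (11.4% and 12.2% of all genes). In KO, 3 were higher and 5 lower (10.9% and 14.9% of all genes). The 10 thymocyte genes summed to 281 to 433 CPM in pDC and 44.8 to 209 in the other groups. Cd8b1 supplied most of the signal in pDC (182 to 258 CPM). Bcl11b stood at 17.1 to 69.1 CPM in pDC, Cd3g at 9.51 to 29.5, Rag1 at 8.46 to 23.9, Thy1 at 9.16 to 22.3 and Lck at 7.10 to 19.3. Cd3d, Themis and Ptcra were each at most 12.9 CPM there, and Cd3e stood at 0 to 6.32. Stk11 itself was 44.9 ± 13.2 CPM (SD, n = 2) in WT and 24.5 ± 8.65 (n = 2) in KO cDC1. In cDC2 it was 34.6 ± 0.501 (n = 2) and 31.2 ± 4.29 (n = 3), and in pDC 51.4 ± 13.7 (n = 3) and 37.8 ± 5.25 (n = 3). None of these Stk11 differences passed the threshold (adjusted p = 1, 0.891 and 0.633, edgeR's quasi-likelihood test), and because the deleted part of the gene is not given in the sources used here, 3′ reads of Stk11 do not check the labels.

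The first question was how the 10 genes differed between subsets. None of the genes for the kinase, its partners and its TSC switch was called in any comparison of the 3 subsets. Among the targets, Eif4ebp1, which encodes the translation repressor 4E-BP1, was 4.71-fold to 12.6-fold lower in pDC than in either conventional subset, and Rps6kb1, which encodes S6 kinase 1, was 1.81-fold and 1.85-fold higher in KO pDC than in KO cDC1 and cDC2. Eif4ebp2, the close relative of Eif4ebp1, was not called. A call means an adjusted p under 0.05 in edgeR's quasi-likelihood test, where p-values were adjusted by Benjamini-Hochberg over the 11746 genes. In WT, 1 of 10 genes was called between pDC and cDC1 and 1 of 10 between pDC and cDC2, where 27.7% (12.8% higher, 14.8% lower) and 23.6% (11.4% higher, 12.2% lower) of all tested genes were called. In both the gene was Eif4ebp1, lower in pDC. In KO, 2 of 10 were called in each of these comparisons, Eif4ebp1 lower and Rps6kb1 higher, against 21.5% (9.08% higher, 12.4% lower) and 25.9% (10.9% higher, 14.9% lower) of all genes. Between cDC2 and cDC1, 0 of 10 were called in WT or in KO, against 8.73% (3.75% higher, 4.98% lower) and 1.27% (0.724% higher, 0.545% lower) of all genes, and DESeq2 and limma voom also called 0.

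**Figure D1:**
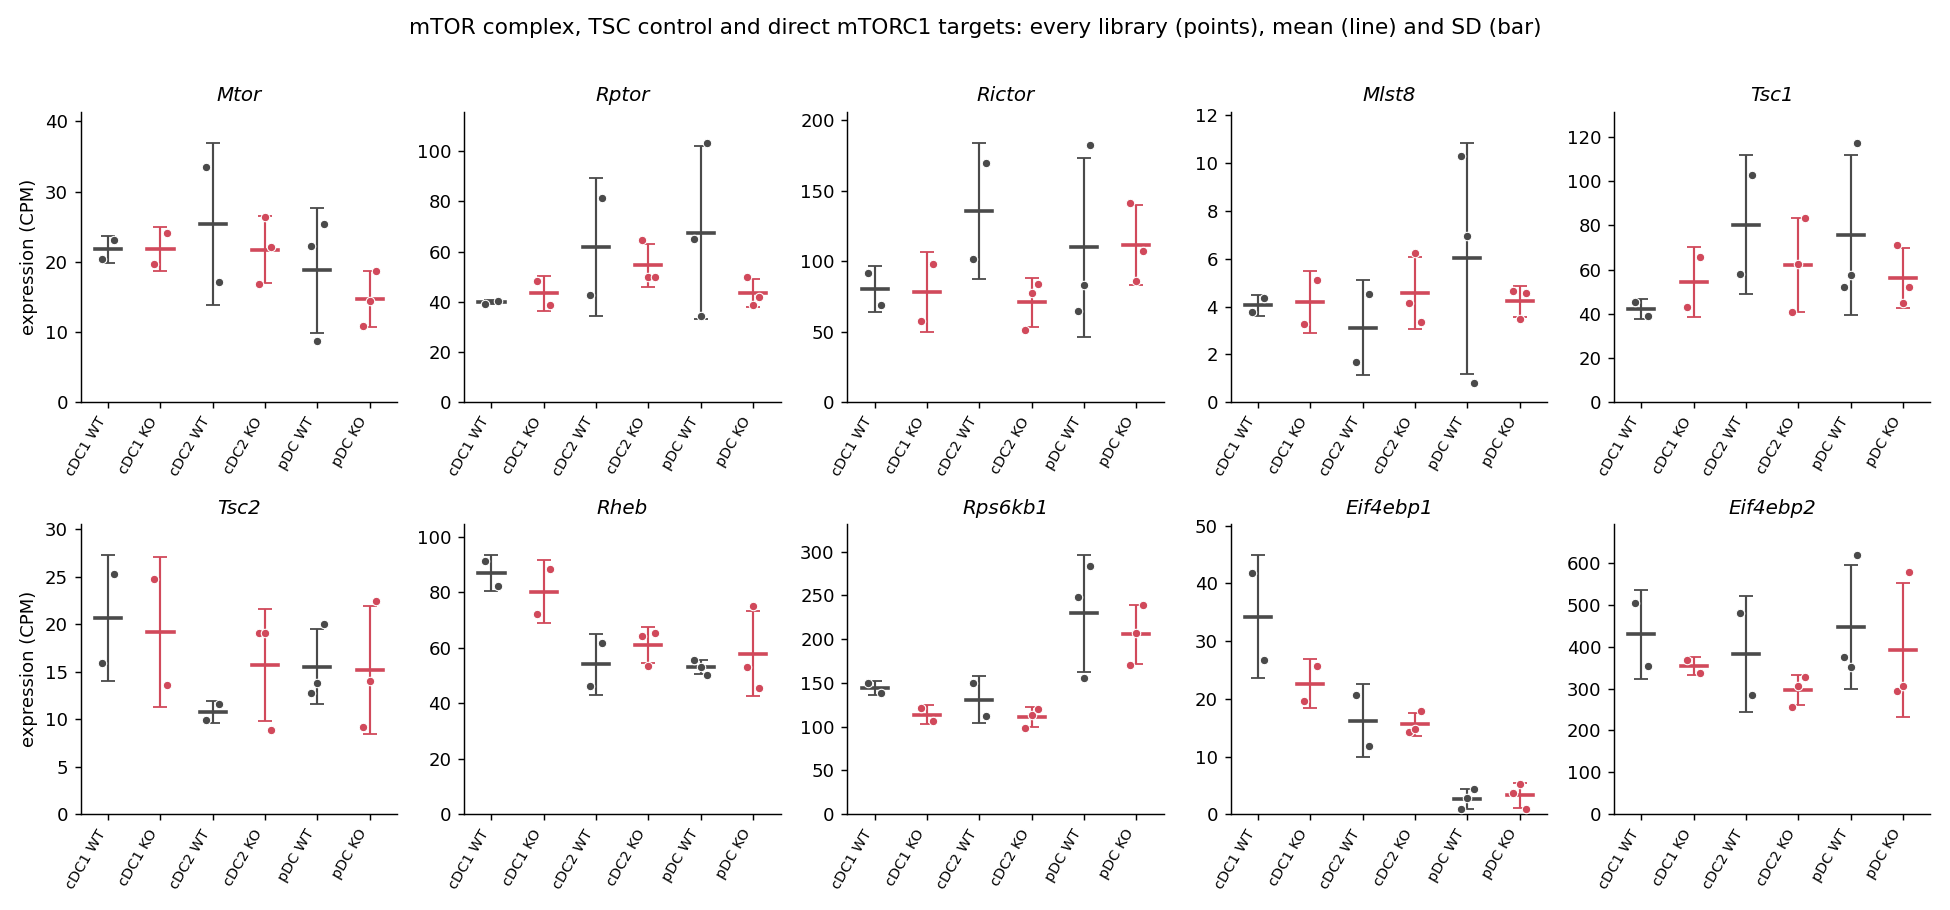
Expression of the 10 genes in CPM (linear axis from 0) in every library (points), with the mean (line) and the SD (bar) of each group, WT in grey and KO in red. Eif4ebp1 lies at 0.876 to 5.28 CPM in the 6 pDC libraries, below the 11.7 to 41.7 CPM of the 9 cDC libraries, and Rps6kb1 lies at 155 to 284 CPM in pDC, above the 99.0 to 150 CPM of the cDC libraries.

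The 4E-BP proteins bind the cap-binding factor eIF4E and block translation until mTORC1 phosphorylates them. Mouse Eif4ebp1 (ENSMUSG00000031490) lies on chromosome 8 (27260329 to 27276674, plus strand, GRCm38) and Eif4ebp2 (ENSMUSG00000020091) on chromosome 10 (61428491 to 61452661, minus strand). The stretches below show the part of the coding sequences around the eIF4E-binding motif that both proteins carry, to compare the relatives of which only Eif4ebp1 was called. They are bases 121 to 213 and 124 to 216 of the coding sequences (354 and 363 bases, GENCODE M21), 5′ to 3′, with the codons of the motif in capitals.
Eif4ebp1: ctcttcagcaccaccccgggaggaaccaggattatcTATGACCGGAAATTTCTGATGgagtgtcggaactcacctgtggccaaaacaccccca
Eif4ebp2: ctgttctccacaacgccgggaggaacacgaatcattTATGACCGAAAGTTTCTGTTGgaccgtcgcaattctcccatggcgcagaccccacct
Of the 21 capital bases, 18 were identical, whereas over 351 aligned coding positions 237 were identical (67.5%), and the longest identical run was 14 bases. In the last 500 bases of the transcripts, where 3′ reads start, Eif4ebp2 shared none of its 471 words of 30 bases with another gene, and Eif4ebp1 shared 37 (7.86%) with transcripts of other genes.

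In cDC1, Eif4ebp1 stood at 41.7 and 26.8 CPM in the WT libraries and at 19.6 and 25.7 CPM in the KO libraries. In cDC2 it stood at 20.6 and 11.7 CPM in WT and at 14.3, 14.7 and 17.9 CPM in KO. In pDC it stood at 0.912, 2.84 and 4.31 CPM in WT and at 3.60, 5.28 and 0.876 CPM in KO, from 7, 22, 38, 24, 38 and 5 reads. Every pDC library was thus below every conventional library, without overlap, in both genotypes. The levels fell in the order cDC1, cDC2, pDC, but the step from cDC1 to cDC2 (34.3 ± 10.6 against 16.2 ± 6.29 CPM in WT, SD, n = 2 each) did not pass the test (log2 difference −1.09 ± 0.62 SE, adjusted p = 0.287, edgeR). Between pDC and cDC1 the log2 difference was −3.65 ± 0.59 in WT (adjusted p = 0.000173, edgeR) and −2.77 ± 0.58 in KO (adjusted p = 0.0019). Between pDC and cDC2 it was −2.57 ± 0.58 in WT (adjusted p = 0.00361, edgeR) and −2.24 ± 0.54 in KO (adjusted p = 0.00491). The contrast between subsets was not shown to differ by genotype: the difference of the KO effects between pDC and cDC1 was 0.88 ± 0.82 (adjusted p = 0.855). In bulk RNA of sorted cells, fewer cells that express the gene and less of its RNA per cell cannot be told apart.

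Genes of the cell cycle were also lower in pDC. Of 15 such genes, 14 were lower in pDC than in cDC1 and 13 lower than in cDC2 in WT, and 12 and 13 in KO, where 14.8%, 12.2%, 12.4% and 14.9% of all genes were lower. Their summed level was 201 to 286 CPM in pDC, 717 to 1686 in cDC1 and 1391 to 2188 in cDC2. Of the 10 thymocyte genes, 1 and 4 were higher in pDC than in cDC1 and cDC2 in WT and 2 and 4 in KO, where 12.8%, 11.4%, 9.08% and 10.9% of all genes were higher, and 0 were lower. The part of either list in the Eif4ebp1 difference was not tested.

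Eif4ebp2 did not follow its relative. It stood at 504 and 354 CPM in cDC1 WT, 369 and 338 in cDC1 KO, 480 and 285 in cDC2 WT, and 257, 305 and 327 in cDC2 KO. In pDC it stood at 374, 351 and 618 CPM in WT and at 294, 305 and 578 in KO, overlapping the conventional libraries throughout. The log2 difference between pDC and cDC1 in WT was 0.061, with a 95% interval from −0.66 to 0.79 (adjusted p = 0.92, edgeR), and it was the gene of the 10 that varied least between group means (SD 0.20 on the log2 scale, against 1.57 for Eif4ebp1). The transcripts' lengths cancel when the ratio of Eif4ebp2 to Eif4ebp1 reads is compared between libraries. That ratio was 12.1 to 18.8 in cDC1, 18.0 to 24.3 in cDC2 and 57.9 to 660 in pDC, so that the mRNA balance between the repressors leaned furthest to Eif4ebp2 in pDC, with no overlap between pDC and the other subsets.

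S6 kinase 1, encoded by Rps6kb1 (ENSMUSG00000020516, chromosome 11, 86498871 to 86544805, minus strand), phosphorylates ribosomal protein S6 and factors of translation initiation after mTORC1 activates it. It stood at 150 and 139 CPM in cDC1 WT, 121 and 106 in cDC1 KO, 150 and 112 in cDC2 WT, and 99.0, 114 and 121 in cDC2 KO. In pDC it stood at 249, 155 and 284 CPM in WT and at 171, 208 and 239 in KO. All 6 pDC libraries were above all 9 conventional libraries, although pDC WT 2 exceeded the highest of them by little. In KO the log2 difference was 0.85 ± 0.29 against cDC1 (adjusted p = 0.0465, edgeR) and 0.89 ± 0.26 against cDC2 (adjusted p = 0.0169). In WT it was 0.67 ± 0.29 (adjusted p = 0.102, edgeR) and 0.81 ± 0.29 (adjusted p = 0.0539), which did not pass, and the KO effects did not differ by test between pDC and cDC1 (0.19 ± 0.41, adjusted p = 0.972).

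The call of Rps6kb1 between KO pDC and KO cDC1 was close to the threshold. It ended on leaving out any 1 of 9 of the 15 libraries (cDC1 WT 1 and 2, cDC1 KO 1 and 2, cDC2 KO 1 and 3, pDC WT 1, pDC KO 2 and 3), with adjusted p between 0.0515 and 0.276 and log2 differences between 0.73 and 0.95, and with offsets for transcript length and GC content (0.60, adjusted p = 0.142, edgeR). With those offsets the WT difference against cDC1 shrank to 0.11. The call against KO cDC2 ended without cDC2 KO 1 (adjusted p = 0.0687, edgeR) or pDC KO 3 (adjusted p = 0.0617), and in WT the gene was called without pDC WT 2 (0.88 against cDC1, adjusted p = 0.0308, and 1.03 against cDC2, adjusted p = 0.0172). Exons of Rps6kb1 overlap those of Rnft1 on the other strand. Whether the counting used strand is not given in the sources used here, and the part of Rnft1 reads in these values was not tested. Rnft1 stood at 5.69 to 16.6 CPM and differed by 0.40 ± 0.48 between KO pDC and KO cDC1 (adjusted p = 0.62, edgeR).

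The promoter of Rps6kb1 is shown because the gene was called higher in pDC in KO, and because of a repeated word that was seen on reading it. It covers chr11:86544758-86545057 on the minus strand (RefSeq, GRCm38.p6), from 250 bases before to 50 bases after the start, 5′ to 3′, with CGCATG on either strand in capitals.
Rps6kb1: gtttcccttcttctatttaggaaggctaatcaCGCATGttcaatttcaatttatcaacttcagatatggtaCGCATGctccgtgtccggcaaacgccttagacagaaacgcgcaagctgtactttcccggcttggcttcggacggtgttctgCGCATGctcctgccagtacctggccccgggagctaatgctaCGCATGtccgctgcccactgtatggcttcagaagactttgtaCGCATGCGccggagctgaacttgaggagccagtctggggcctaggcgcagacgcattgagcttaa
CGCATG appears at 5 places, the last of which also reads CGCATG on the other strand, which makes 6 matches. Of 32851 promoters of this length, 6.5% held CGCATG at all and 55 (0.167%) held 4 or more matches, while the other 8 of the 9 promoters matched for these genes held none. Searched on both strands, 0 of the 9 held CAGGTG (20.2% of all promoters), the CRE palindrome TGACGTCA (1.79%) or TGATGNAA (3.97%), a word of the ATF4 type. Eif4ebp1 had no entry among the promoters, so its promoter was not searched for any of these words. The word CGCATG was chosen after the promoter was read, and a match is a description of letters only.

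The genes of the kinase complexes were expressed in every library. Mtor, the catalytic subunit (ENSMUSG00000028991, chromosome 4, 148448611 to 148557683, plus strand), stood at 20.4 and 23.1 CPM in cDC1 WT, 19.6 and 24.1 in cDC1 KO, 33.5 and 17.2 in cDC2 WT, and 16.8, 26.3 and 22.1 in cDC2 KO. In pDC it stood at 22.3, 8.64 and 25.4 CPM in WT and at 10.8, 14.4 and 18.7 in KO. Only the KO pDC libraries lay below both KO cDC1 libraries without overlap, and that difference did not pass (log2 difference −0.58 ± 0.43, adjusted p = 0.387, edgeR). Mlst8, a subunit of both complexes (ENSMUSG00000024142, chromosome 17, 24473551 to 24479078, minus strand), was the most thinly counted, with 7 to 79 reads a library and 0.793 to 10.3 CPM. Its intervals were accordingly wide, from −1.17 to 2.29 for pDC against cDC1 in WT, and differences within these bounds were not excluded.

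Rptor, the scaffold of mTORC1 (ENSMUSG00000025583, chromosome 11, 119602905 to 119899576, plus strand), stood at 39.2 and 40.4 CPM in cDC1 WT, 42.5 and 81.3 in cDC2 WT, and 65.0, 34.4 and 103 in pDC WT. The pDC WT libraries spread over the whole range of the other groups. The log2 difference between pDC and cDC1 in WT was 0.76 ± 0.39 (adjusted p = 0.163, edgeR), which passed the threshold only without pDC WT 2 (1.08, adjusted p = 0.0361). Rictor, the scaffold of mTORC2 (ENSMUSG00000050310, chromosome 15, 6708379 to 6800401, plus strand), stood at 91.9 and 68.8 CPM in cDC1 WT, 101 and 170 in cDC2 WT, and 64.3, 83.1 and 182 in pDC WT. The highest value again came from pDC WT 3, and without that library the log2 difference between pDC and cDC1 turned from 0.45 to −0.11 (adjusted p = 0.865, edgeR).

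The genes of the TSC switch gave opposed log2 differences, and none of these passed the threshold in the main test. Tsc1 (ENSMUSG00000026812, chromosome 2, 28641228 to 28691167, plus strand) stood at 45.3 and 39.0 CPM in cDC1 WT, below the 58.0 and 103 of cDC2 WT and the 52.2, 57.7 and 117 of pDC WT, without overlap. The log2 differences from cDC1 were 0.94 ± 0.44 for cDC2 (adjusted p = 0.194, edgeR) and 0.85 ± 0.41 for pDC (adjusted p = 0.138), and they were 0.19 and 0.046 in KO. Tsc2, whose product carries the GTPase-activating domain (ENSMUSG00000002496, chromosome 17, 24595816 to 24632630, minus strand), stood at 15.9 and 25.3 CPM in cDC1 WT against 9.95 and 11.6 in cDC2 WT, in the opposite direction (−0.94 ± 0.51, adjusted p = 0.268, edgeR). Its exons overlap those of Pkd1 on the other strand, which stood at a like level (7.48 to 28.7 CPM) and showed no call. Rheb (ENSMUSG00000028945, chromosome 5, 24802823 to 24842624, minus strand) stood at 91.5 and 82.5 CPM in cDC1 WT, above the 46.4 and 61.9 of cDC2 WT and the 55.6, 53.2 and 50.3 of pDC WT. The groups did not overlap, and the log2 difference between pDC and cDC1 was −0.71 ± 0.28 (adjusted p = 0.0668, edgeR), which passed with DESeq2 (adjusted p = 0.0426) and with length and GC offsets (adjusted p = 0.0322).

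In the KO libraries, Rictor stood at 57.8 and 98.3 CPM in cDC1 KO and at 142, 85.8 and 107 in pDC KO, the latter all above the cDC2 KO libraries without a call (log2 difference 0.66 ± 0.37, adjusted p = 0.213, edgeR). Rptor stood at 48.1 and 38.5 CPM in cDC1 KO, at 64.5, 49.7 and 49.7 in cDC2 KO and at 49.8, 38.6 and 42.0 in pDC KO. Their SD was smaller in KO than in WT in pDC (5.73 against 34.4 CPM for Rptor and 28.1 against 63.4 for Rictor, n = 3 each) and larger in cDC1. Neither scaffold gene separated all 3 subsets. Tsc1 stood at 43.2 and 65.5 CPM in cDC1 KO, at 40.7, 62.5 and 83.2 in cDC2 KO and at 71.1, 45.0 and 52.2 in pDC KO, overlapping in all 3 subsets, with means of 54.3, 62.1 and 56.1 CPM. The means ranked as in WT, with cDC2 highest and cDC1 lowest. Tsc2 stood at 24.7 and 13.6 CPM in cDC1 KO, at 19.1, 19.1 and 8.86 in cDC2 KO and at 9.15, 14.0 and 22.4 in pDC KO, and at 12.8, 13.8 and 20.1 in pDC WT. Rheb stood at 72.2 and 88.4 CPM in cDC1 KO, above the 64.3, 53.6 and 65.2 of cDC2 KO, while the 53.2, 75.0 and 45.5 of pDC KO overlapped both. The Rheb difference between KO pDC and KO cDC1, −0.47 ± 0.28, kept the direction seen in WT and was not called (adjusted p = 0.263, edgeR).

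In WT, the groups did not overlap for 6 of the 10 genes between cDC2 and cDC1, 4 between pDC and cDC1 and 3 between pDC and cDC2, where the shares over all genes were 52.9%, 53.2% and 43.3%. In KO they did not overlap for 4, 3 and 3 genes, against 34.7%, 51.9% and 44.8%. These counts were near the shares of all genes. The median log2 difference of the 10 genes was 0.26 between pDC and cDC1 in WT and 0.045 between pDC and cDC2, beside −0.052 and 0.066 over all genes, and 0.0087 and −0.097 in KO, beside −0.094 and −0.082.

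**Figure D2:**
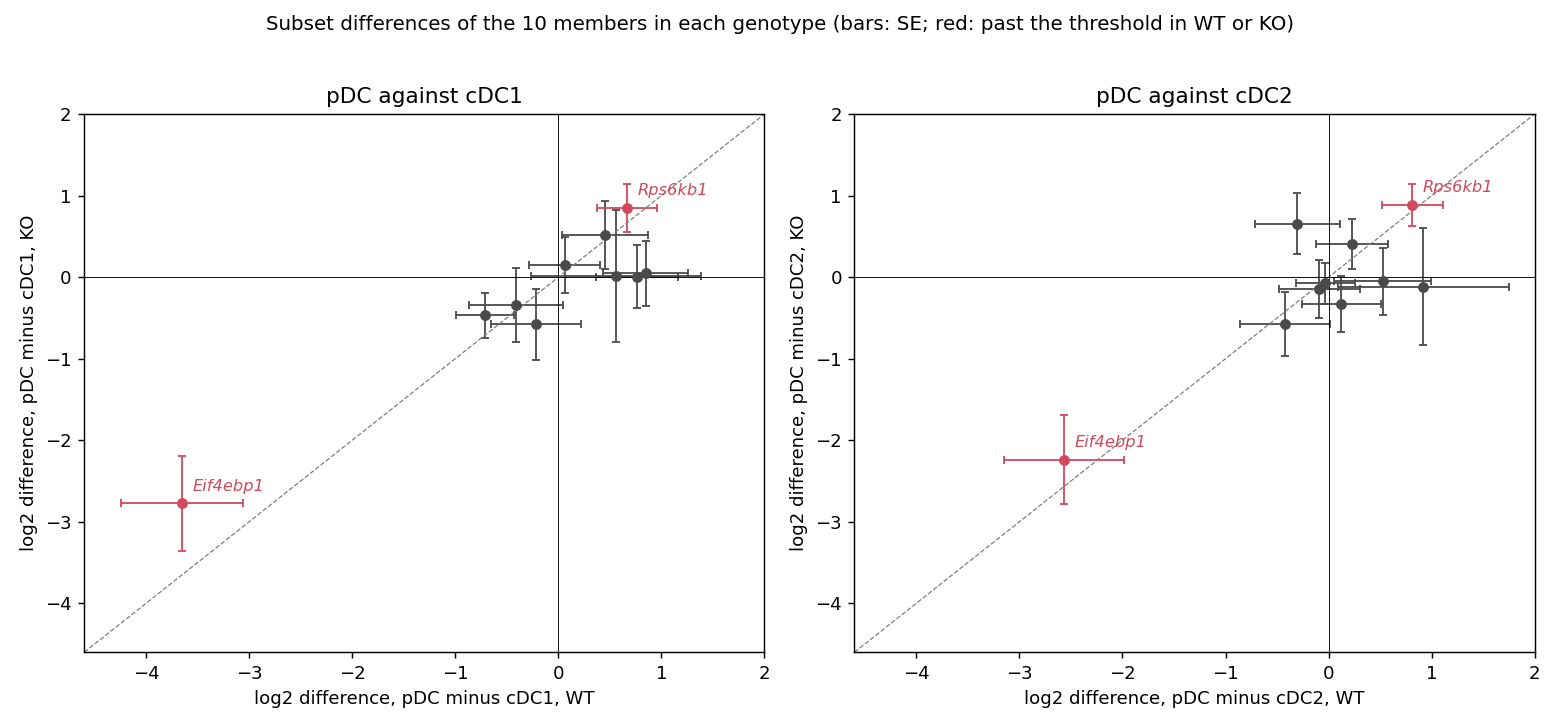
Log2 difference between pDC and cDC1 (left) and between pDC and cDC2 (right) for each of the 10 genes, in WT (horizontal axis) and KO (vertical axis), with SE bars. The dashed line marks equal differences, and the genes in red, Eif4ebp1 and Rps6kb1, passed the threshold in at least 1 genotype, while the other 8 lie within about 1 of zero on both axes.

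The second question was whether loss of LKB1 changed these genes. By edgeR's quasi-likelihood test, 0 of 10 were called in cDC1, cDC2, pDC or the average over subsets. Of all genes, 0.0255% were called in cDC1 (all higher), 0.119% in cDC2 (0.0851% higher, 0.0341% lower), 0.0681% in pDC (0.0596% higher, 0.00851% lower) and 0.306% in the average (0.238% higher, 0.0681% lower). These were 3, 14, 8 and 36 genes, counts that single libraries moved: to 1 or 5 in cDC1 (5 without pDC KO 3), 1 without cDC2 KO 1 or 26 without cDC2 WT 2 or pDC WT 3 in cDC2, 4 without pDC KO 2 or 22 without pDC KO 3 in pDC, and 5 without either cDC1 WT library in the average. DESeq2 and limma voom also called 0 of the 10 genes. At an unadjusted p under 0.05, only Rictor in cDC2 was below the limit. The log2 differences ranged from −0.60 to 0.37 in cDC1, from −0.94 to 0.54 in cDC2 and from −0.64 to 0.28 in pDC, with medians of −0.075, −0.20 and −0.17 beside 0, 0.088 and 0 over all genes. The precision was limited: the 95% interval excluded a change of 2-fold in either direction for 2 of 10 genes in cDC1, 3 in cDC2 and 5 in pDC. For the average over the subsets it did so for 9 of 10, with differences between −0.32 and 0.13. The exception was Mlst8, with an interval from −0.95 to 1.00.

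**Figure D3:**
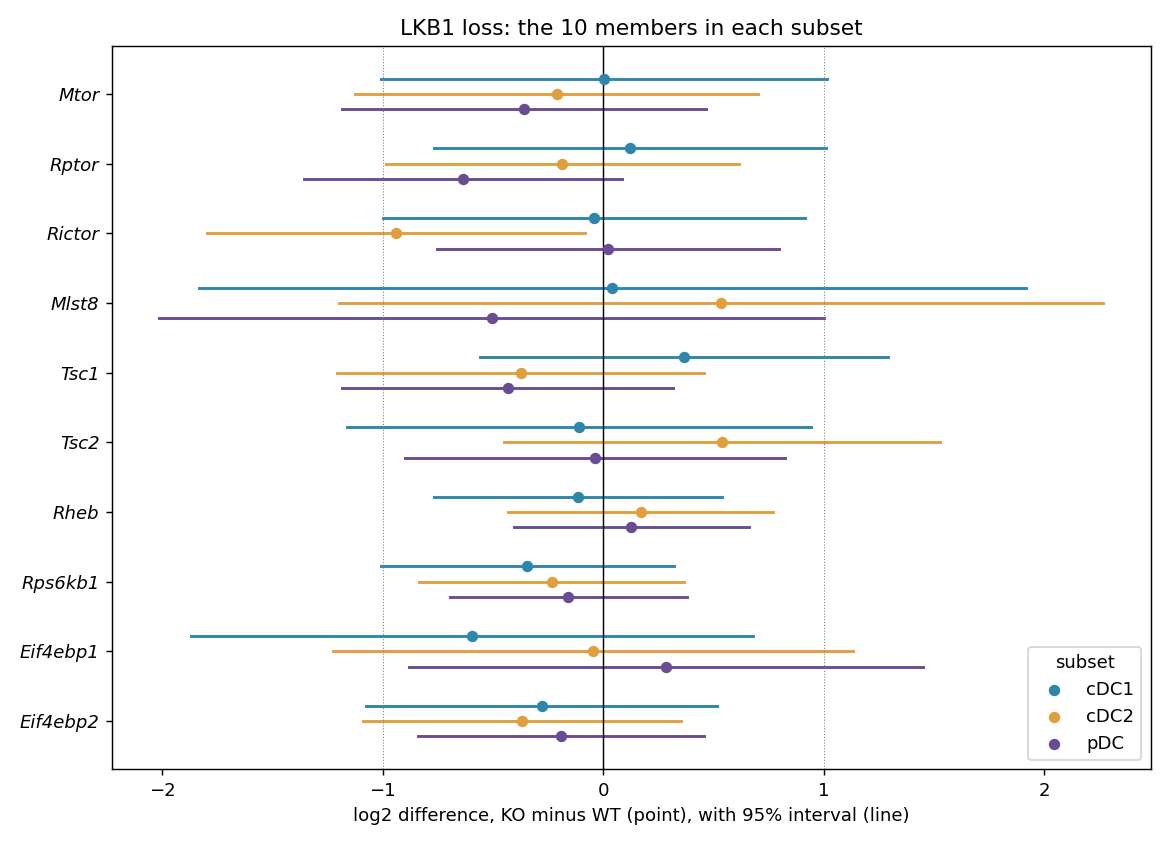
Log2 difference between KO and WT (points) with 95% intervals (lines) for the 10 genes in cDC1, cDC2 and pDC, with dotted lines at a 2-fold change in either direction. Every interval includes 0 except that of Rictor in cDC2, and the widest are those of Mlst8.

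Rictor in cDC2 stood at 101 and 170 CPM in WT and at 50.9, 77.5 and 83.8 in KO. Every KO library was below both WT libraries, the only such case among the 10 genes in cDC2, where 34.8% of all genes did not overlap. The log2 difference was −0.94 ± 0.41, with an interval from −1.80 to −0.081, and it did not pass after adjustment (adjusted p = 0.332, edgeR) and was −0.48 with length and GC offsets. In cDC1 and pDC the KO effect on Rictor was −0.042 ± 0.45 and 0.021 ± 0.37, and the difference from cDC2 did not pass either (0.96 ± 0.55 between pDC and cDC2, adjusted p = 0.655, edgeR). The cDC2 WT libraries were those with fewer genes at equal depth, and the part of this in the Rictor values was not tested.

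The repressors and kinase targets were likewise not called. In cDC1 the KO libraries were below the WT libraries without overlap for Eif4ebp1 (22.6 ± 4.28 against 34.3 ± 10.6 CPM, n = 2 each, log2 difference −0.60 ± 0.61, adjusted p = 1, edgeR) and for Rps6kb1 (114 ± 10.5 against 145 ± 8.21 CPM, −0.34 ± 0.32, adjusted p = 1), 2 of 10 genes where the share over all genes was 37.2%. In pDC no gene was without overlap, where the share was 11.3%. The lowest adjusted p in pDC belonged to Rptor, at 49.8, 38.6 and 42.0 CPM in KO against 65.0, 34.4 and 103 in WT (−0.64 ± 0.34, adjusted p = 0.534, edgeR). For the brake genes, the KO effect on Tsc1 was 0.37 ± 0.44 for cDC1, −0.37 ± 0.40 for cDC2 and −0.43 ± 0.36 for pDC. That on Tsc2 was −0.11 ± 0.50, 0.54 ± 0.47 and −0.037 ± 0.41 in the same order. The Tsc1 value in pDC rested on pDC WT 3, without which it was 0.020 (adjusted p = 1, edgeR), and the Eif4ebp2 value in cDC2, −0.37 ± 0.34, rested on cDC2 WT 1, without which it was 0.070 (adjusted p = 0.971). The differences of the KO effects between subsets gave 0 calls among the 10 genes, against 1, 0 and 0 of the 11746 genes (0.00851%, 0% and 0%). At an unadjusted p under 0.05 there were 994, 970 and 988 genes in all.

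Some of the 10 genes varied together or in opposite directions over the 15 libraries. Pearson's r of log2 CPM was 0.81 for Rictor and Tsc1, −0.74 for Rps6kb1 and Eif4ebp1, and 0.65 for Rheb and Eif4ebp1. It was 0.64 for Rps6kb1 and Eif4ebp2, and 0.62 for Rptor and Tsc1. These values are a description, since the libraries share subsets and depth. The library pDC WT 3 was also the highest for Rptor, Rictor, Tsc1, Rps6kb1 and Eif4ebp2. Among all tested genes, those most like Eif4ebp1 over the 15 libraries were Galnt10 (r = 0.98), Sgk1 (0.97) and Egr3 (0.96). Those most like Rps6kb1 were Ppm1h (0.95), Gnaq (0.95) and Scrn1 (0.94), and those most like Rictor were Aff4 (0.87), Atl2 (0.87) and Usp9x (0.86).

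Other genes of the pathway were grouped in lists by role. The shares of all genes called, to set beside their counts, were 12.8% higher and 14.8% lower for pDC against cDC1 in WT, 11.4% and 12.2% against cDC2 in WT, 9.08% and 12.4% against cDC1 in KO, and 10.9% and 14.9% against cDC2 in KO. Of 8 partners of the complexes, 2 were lower in pDC than in cDC1 in either genotype, and 1 was higher and 2 lower in pDC than in cDC2. With so few genes these counts were near the shares of all genes. Deptor, which encodes an inhibitor that binds mTOR in both complexes, stood at 1.55 to 3.29 CPM in pDC WT and 0.175 to 3.33 in pDC KO, against 11.2 to 49.0 CPM in the conventional libraries, without overlap. It was 8.81-fold lower than in cDC1 and 15.2-fold lower than in cDC2 in WT (adjusted p = 0.000904 and 0.000142, edgeR), and 11.2-fold and 17.2-fold lower in KO. Against cDC2, the mTORC2 partners Prr5 and Prr5l, which encode Protor-1 and Protor-2, went in opposite directions. Prr5 was not called between pDC and cDC1 in either genotype, whereas Prr5l was called lower in pDC there too. In WT, Prr5 was also 3.84-fold lower in cDC2 than in cDC1 (adjusted p = 0.0248, edgeR). Where leaving out 1 library ended that call, the log2 difference was −2.11 to −1.28. Prr5 was 17.3 to 33.0 CPM in pDC and 1.66 to 5.42 in cDC2 (7.02-fold in WT, adjusted p = 0.000386, edgeR), while Prr5l was 18.0 to 41.9 CPM in pDC and 73.5 to 119 in cDC2 (2.88-fold in WT, adjusted p = 0.00573, and 0.0845 without cDC2 WT 1).

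**Figure D4:**
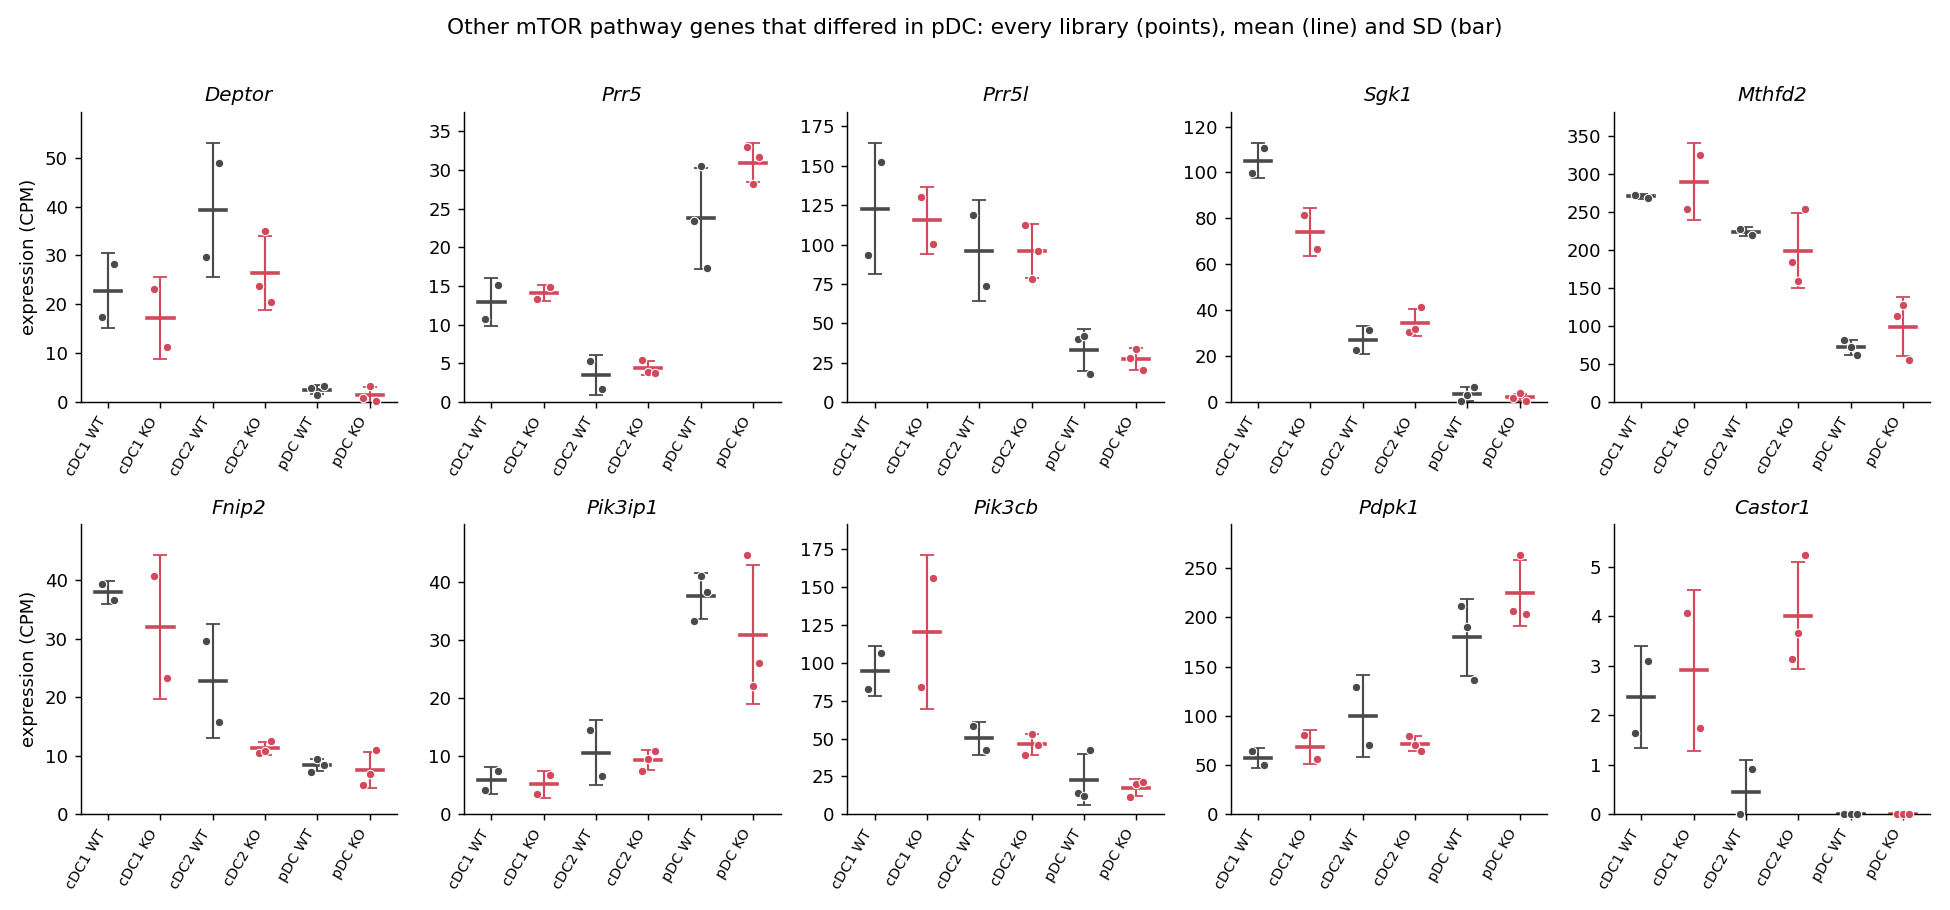
Expression in CPM (linear axis from 0) of 10 other genes of the pathway in every library (points), with group mean (line) and SD (bar), WT in grey and KO in red. The means of Deptor, Prr5l, Sgk1, Mthfd2, Fnip2 and Pik3cb are lowest in pDC, those of Prr5, Pik3ip1 and Pdpk1 are highest there, and Castor1 has 0 counts in all 6 pDC libraries.

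Among effectors of translation and growth, 5 of 16 tested genes were lower and 2 higher in pDC than in cDC1 in WT, beside 14.8% and 12.8% of all genes, and 3 lower and 1 higher than in cDC2. In KO, 2 were lower and 1 higher than in cDC1 (12.4% and 9.08% of all genes), and 4 lower and 0 higher than in cDC2 (14.9% and 10.9%). Sgk1, which encodes a kinase activated by mTORC2, showed the widest gap, at 0.651 to 6.80 CPM in pDC against 66.7 to 110 in cDC1 and 22.6 to 41.2 in cDC2. It was 29.1-fold lower than in cDC1 and 7.50-fold lower than in cDC2 in WT (adjusted p = 1.13e-05 and 0.00132, edgeR), and 34.5-fold and 16.1-fold lower in KO. Rps6, which encodes the ribosomal protein that S6 kinase phosphorylates, was 310 ± 74.7 CPM in pDC WT (n = 3) against 784 ± 30.4 in cDC1 WT (n = 2, adjusted p = 0.00381, edgeR). The elongation factor gene Eef2 was also lower in that comparison (2.42-fold, adjusted p = 0.000401, edgeR), and Pdcd4, which encodes an inhibitor of eIF4A, was 4.51-fold higher (adjusted p = 0.00244). In KO, Rps6, Eef2 and Pdcd4 were not called against either conventional subset. For Pdcd4 the difference of the KO effects, pDC minus cDC1, was −1.84 ± 0.63 (adjusted p = 0.385, edgeR).

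Of 14 genes of the PI3K and AKT input, 3 were called higher and 2 lower in pDC against cDC1 in WT, where 12.8% and 14.8% of all genes were, 2 and 1 against cDC2, and in KO 3 and 1 against cDC1 and 3 and 3 against cDC2. Pik3ip1, which encodes an inhibitor of PI3K, was 22.1 to 44.5 CPM in pDC against 3.53 to 14.6 in the conventional libraries (6.35-fold above cDC1 in WT, adjusted p = 0.000516, and 6.04-fold in KO, adjusted p = 0.000683, edgeR). Pdpk1, which encodes the kinase PDK1 upstream of AKT and S6 kinase, was 3.15-fold above cDC1 in WT (adjusted p = 0.00111, edgeR) and 3.27-fold in KO. The catalytic subunit gene Pik3cb was 4.14-fold and 6.84-fold lower in pDC than in cDC1 in WT and KO (adjusted p = 0.00253 and 0.00025, edgeR).

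Of 26 genes for Rag GTPases, Ragulator and amino acid sensors, which bring mTORC1 to the lysosome, 3 were higher and 3 lower in pDC than in cDC1 in each genotype, near the shares of all genes (12.8% and 14.8% in WT, 9.08% and 12.4% in KO). Against cDC2, 2 were higher and 1 lower in WT, and 3 and 1 in KO. Castor1, which encodes an arginine sensor, had 0 counts in all 6 pDC libraries. In cDC2 WT it was also thinly counted, and its difference from pDC was not called there. It had 24 reads in cDC1 WT, 43 in cDC1 KO and 104 in cDC2 KO. Scaled for depth, with a floor of 3 counts over the pDC group, the ratios were 19.9, 19.4 and 25.7. They are not lower bounds. The same comparisons were called with intervals of the log2 difference that reached −3.27, −3.42 and −3.98 (edgeR), smaller differences than these ratios. The second of these calls ended without cDC1 KO 1 (adjusted p = 0.0637, edgeR). Fnip2, a partner of folliculin, was 4.51-fold lower in pDC than in cDC1 in WT (adjusted p = 0.000531, edgeR) and 4.23-fold in KO. Nprl3, which encodes a subunit of the GATOR1 inhibitor of Rag GTPases, was 11.6 to 19.6 CPM in pDC against 0 to 4.95 in cDC2 (adjusted p = 0.000736 in WT and 0.00976 in KO, edgeR).

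Of 13 genes that mTORC1 is known to induce through ATF4, 4 were lower and 0 higher than in cDC1 in either genotype, 3 were lower and 1 higher than in cDC2 in WT, and 4 lower and 3 higher in KO. Of all genes, 14.8% and 12.4% were lower than in cDC1 in WT and KO, and 12.2% and 14.9% lower than in cDC2. Mthfd2, an enzyme of mitochondrial folate metabolism, was 72.4 ± 9.75 CPM in pDC WT (n = 3) against 271 ± 3.16 in cDC1 WT and 224 ± 6.06 in cDC2 WT (n = 2 each, adjusted p = 0.000272 and 0.00117, edgeR). Asns, which encodes asparagine synthetase, had 0 reads in pDC KO against 78 in cDC1 KO, at least 35.1-fold lower. Phgdh, of serine synthesis, went the other way, 2.60-fold higher in pDC than in cDC2 in WT (adjusted p = 0.0164, edgeR), a call that ended without cDC2 WT 2 (adjusted p = 0.119). Of 12 tested genes for LKB1, AMPK and stress brakes, 2 were higher and 0 lower than in cDC1 in either genotype, 2 higher and 1 lower than in cDC2 in WT, and 1 and 0 in KO, beside 12.8%, 9.08%, 11.4% and 10.9% of all genes higher in pDC against cDC1 in WT and KO and against cDC2 in WT and KO. Prkag2, an AMPK subunit gene, was 3.28-fold and 2.85-fold higher in KO pDC than in KO cDC1 and cDC2 (adjusted p = 0.00316 and 0.00207, edgeR). In WT it was 2.51-fold and 2.28-fold higher in the same comparisons (adjusted p = 0.0143 and 0.0285, edgeR). Those WT calls ended on leaving out any 1 of 2 and any 1 of 3 of the 15 libraries.

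With loss of LKB1, 0 genes of these 6 lists were called in cDC1, cDC2, pDC or the average by edgeR's quasi-likelihood test. Of all genes, only 0.0255%, 0.119%, 0.0681% and 0.306% were called in the same order. The cell cycle list of 15 genes had 1 call, Rrm2 in pDC, where 0.0596% of all genes were called higher. Rrm2, a subunit gene of ribonucleotide reductase, stood at 5.70 to 9.72 CPM in KO against 0.781 to 1.55 in WT (log2 difference 2.47 ± 0.41, adjusted p = 0.0249, edgeR). That call ended without pDC KO 2 or any 1 of the 3 pDC WT libraries (adjusted p from 0.0524 to 0.0932), with limma voom (adjusted p = 0.448), with the replicate block (adjusted p = 0.063) and in a fit of the pDC groups alone (adjusted p = 0.698).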

How the data were processed

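Sorted thymic dendritic cells were measured by 3′ RNA-seq in 15 libraries of 6 groups. The deposited table holds raw read counts per gene. Per the submitters' processing notes, the tools included HTSeq, STAR and DESeq2, with build mm10; versions and roles are not given there. Symbols and coordinates came from GENCODE M21 (GRCm38) and matched 21745 of 22165 genes. Promoters came from RefSeq. edgeR 4.0.16 (R 4.3.3) filtered genes with filterByExpr, which left 11746 and removed 0.0538% of the counts, scaled libraries by TMM and fitted a robust quasi-likelihood model with 1 coefficient per group to all 15 libraries (common biological coefficient of variation 0.395), with Benjamini-Hochberg adjustment over all tested genes and a threshold of 0.05. The code was tested on simulated data. Values after ± are SE for log2 differences and SD for CPM. DESeq2 1.42.0, limma voom 3.58.1, other scaling and filters, a replicate block, length and GC offsets and leaving out each library were tried. The naming rule took all 10 genes, up to 4 called genes with the smallest p per pathway list and comparison, of which the text gives a part, and the 3 genes most correlated with each of the 3 most variable of the 10. The genes and lists were chosen with earlier results of these data known. Depth was 3928164 to 12142712 counts per library, and groups of 2 or 3 limit the precision.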

Additional observations from a re-analysis of the deposited data

How the results depend on the processing

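The 4 calls of Eif4ebp1 between pDC and conventional cells kept their direction and side of the threshold in all 23 alternatives each, with log2 differences from −4.16 to −3.25 and −3.09 to −2.10 against cDC1 and cDC2 in WT, and −3.31 to −2.34 and −2.77 to −1.81 in KO (largest adjusted p 0.0398). Counts of called genes among the 10 moved as follows. Between pDC and cDC1 in WT, 1 became 2 with DESeq2 and 2 with length and GC offsets (Rheb added), and 1 to 3 on leaving out 1 library (3 without pDC WT 2). Between pDC and cDC2 in WT, 1 became 2 with DESeq2 and with a stricter filter (Rps6kb1 added), and 1 to 2 on leaving out 1 library. Between pDC and cDC1 in KO, 2 became 1 without a filter (Rps6kb1 at adjusted p = 0.0755), with length and GC offsets and with the replicate block (adjusted p = 0.0915), and 1 to 2 on leaving out 1 library. Between pDC and cDC2 in KO it was 1 to 2 on leaving out 1 library. The other 9 comparisons gave 0 in every alternative.

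Of the log2 differences of the 10 genes under alternatives, 14 lost and 7 gained a call. No called value changed sign. Of 2973 values, 201 changed sign, 197 of them where the main value lay within 1 SE of 0. The other 4 were these: Rictor between pDC and cDC1 in WT (0.45) became −0.17 with offsets and −0.11 without pDC WT 3 (−0.11 to 0.73 on leaving out 1 library), Tsc1 in pDC KO against WT (−0.43) became 0.020 without pDC WT 3 (−0.64 to 0.020), and Eif4ebp2 in cDC2 KO against WT (−0.37) became 0.070 without cDC2 WT 1 (−0.68 to 0.070). The cause was not tested. Of other pathway genes, 2141 values kept their call and 192 lost it. The labels do not say whether a replicate number marks a shared mouse or day. Over 33 same-numbered pairs the correlation of deviations from group means had a median of −0.0204 (−0.182 to 0.179), and 4 of 15 libraries correlated best with their own number. In groups of 2 libraries these deviations are mirror images of each other, so the correlations cannot decide whether libraries were paired. The replicate block moved the calls over all genes from 3 to 1, 14 to 7, 8 to 3 and 36 to 19 for KO against WT in cDC1, cDC2, pDC and the average.

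Over all genes, calls for KO against WT in cDC1, cDC2, pDC and the average were 18, 220, 138 and 133 with DESeq2, and 28, 177, 203 and 166 without a filter. With limma voom they were 8 in cDC1 and 0 in cDC2. Calls between cDC2 and cDC1 in WT fell from 1025 to 253 without cDC1 WT 1, to 340 without cDC1 WT 2 and to 574 without cDC2 WT 2. Between pDC and cDC1, they fell from 3253 to 1692 without cDC1 WT 1 in WT, and from 2521 to 1381 without cDC1 KO 2 in KO. Thin counts limit Mlst8 most, and with 2 or 3 libraries a group, single libraries move the small differences: leaving out pDC WT 2 added 3 calls among the 10 genes, and pDC WT 3 turned the sign of 2 values.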

Other observations

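Of the low-count pathway genes, Ddit4, Nprl3 and Castor1 had higher counts in cDC2 KO than in cDC2 WT, without passing the test. Their lists as a whole did not share this: 6 of 12 tested genes of the LKB1, AMPK and stress list were higher in KO (median log2 difference 0.0064) and 16 of 26 of the Rag and sensor list (median 0.11), beside a median of 0.088 over all genes. Ddit4, which encodes the stress-induced mTORC1 inhibitor REDD1, had 24, 40 and 27 reads in the cDC2 KO libraries against 0 and 1 in cDC2 WT. Scaled for depth, the ratio was 37.0, with a counting interval from 6.48 to 1479, and the log2 difference had an adjusted p of 0.192 in edgeR's quasi-likelihood test. In cDC1 the order was the reverse, with 3 and 5 reads in KO against 8 and 11 in WT (adjusted p = 1). Nprl3, of the GATOR1 complex, was 4.21 to 4.95 CPM in cDC2 KO against 0 to 1.51 in WT (log2 difference 2.44 ± 0.69, adjusted p = 0.152), and Castor1 was 3.14 to 5.23 CPM against 0 to 0.904 (adjusted p = 0.394). The cDC2 WT libraries also showed fewer genes at equal depth, 10840 and 11359 against 12430 to 12760 in cDC2 KO, and the part of this in the values was not tested. These genes were singled out from the lists after their values were seen.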
